A study of Rattus norvegicus with 6 samples.

Results

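Prostanoids are lipid signals made from arachidonic acid, and 10 genes of their synthesis, reception and breakdown were followed in cells grown from rat aorta. They were Ptgs1, Ptgs2, Ptgis, Ptges, Ptgds and Tbxas1 (synthesis), Ptgir, Ptger4 and Ptgfr (receptors) and Hpgd (breakdown). The genes were chosen by their symbols, all 10 were found in the deposited table of 16770 genes, and 8 passed the filter on low counts that left 12614 genes for testing. The 2 that did not pass were Ptgds and Tbxas1, with 3 and 21 counts in all libraries together.

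The cells came from the aortic segment next to the heart of 3-month-old rats of 2 inbred strains, the spontaneously hypertensive rat (SHR) and the normotensive Wistar Kyoto rat (WKY). Explants were placed with the luminal side on the plastic, and the cells that the labels call endothelial were kept in endothelial medium with serum, antibiotics and endothelial growth supplement. No further treatment is given in the labels. Each strain had 3 libraries, replicates 1 and 2 in batch 1 and replicate 3 in batch 2, and the labels do not say what a batch is. The labels give 3 per strain without stating that each library was its own animal or culture, and the p-values speak only of the spread among the libraries.

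Prostanoid synthesis begins when a phospholipase frees arachidonic acid from the membrane. The cyclooxygenases, encoded by Ptgs1 and Ptgs2, turn it into prostaglandin H, and terminal synthases then make prostacyclin (Ptgis), prostaglandin E (Ptges), prostaglandin D (Ptgds) or thromboxane (Tbxas1). In the vessel wall prostacyclin relaxes smooth muscle and restrains platelets through its receptor Ptgir, while thromboxane constricts and activates platelets. Prostaglandin E acts on several receptors, of which the product of Ptger4 raises cyclic AMP, prostaglandin F acts on that of Ptgfr, and the dehydrogenase encoded by Hpgd inactivates prostaglandins taken up by cells.

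The libraries held 18462032 to 19947286 counts. Levels are given as CPM, the count scaled to a common library size. A count of 0 in a library allows an expected count of up to about 3, which stood for 0.151 to 0.187 CPM. Of the 10 matched endothelial markers, 6 were under 1 CPM in every library. Cdh5, the endothelial cadherin, reached at most 0.105 CPM, the receptor gene Tie1 at most 0.052 CPM, the nitric oxide synthase gene Nos3 at most 0.303 CPM and the junction gene Pecam1 at most 2.18 CPM. Of 12 endothelial markers 10 were matched and 3 passed the filter, and the 10 summed to 18.7 to 37.6 CPM per library, most of it Egfl7 and Tek. The 8 fibroblast markers summed to 5730 to 15813 CPM in the same libraries. The levels below thus come from cultures in which 6 of the 10 matched markers of the labelled cell type were under 1 CPM throughout. In bulk samples fewer cells of a type and less RNA per cell cannot be told apart. The batch 2 libraries stood apart. Smooth muscle markers summed to 8144 CPM in WKY replicate 3 and 1860 CPM in SHR replicate 3, against 749 to 903 CPM in batch 1. The 6 mesothelial markers summed to 638, 311 and 78.4 CPM in the WKY libraries and 383, 510 and 1158 CPM in the SHR libraries. Most of this was Msln, the mesothelin gene, with 61.3 CPM in WKY replicate 3 and 306 to 758 CPM elsewhere. Of the 6 macrophage markers, Ptprc and Adgre1 were listed at 0 in all libraries, while Cd68 (3.48 to 28.02 CPM) and Cd14 (14.8 to 39.3 CPM) were not, and the list summed to 28.9 to 67.8 CPM. Of the platelet markers Pf4 was listed at 0 and Itga2b reached 1.30 CPM.

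The summed fibroblast markers overlapped between the strains, with 5730 to 15813 CPM in WKY and 12329 to 15215 CPM in SHR. Singly, all 8 had a positive log2 difference of SHR over WKY, with a median of 1.79, and in 6 of 8 the strains did not overlap, against 9.81% of all genes tested. The edgeR test called 1 of the 8, Tcf21 (log2 difference 6.67, adjusted p = 0.0373), against 0.254% of all genes. DESeq2 called 5, against 5.14%, and 6 had an unadjusted edgeR p below 0.05, against 13.3%. The 7 smooth muscle markers tested all had a negative log2 difference, with a median of -0.73. Of all 12614 genes tested 6633 had a negative one. For these markers edgeR called 0, against 0.254% of all genes, and DESeq2 called 1, Myocd, against 5.14%. An unadjusted edgeR p below 0.05 was reached by 2, Myh11 and Myocd, both lower in SHR, against 13.3% of all genes. The strains overlapped in each smooth muscle marker tested, while they did not in 9.81% of all genes. Within batch 1 the difference was above 0 for Acta2 (0.72) and Tagln (0.14) and below 0 for the others tested. Dcn, a matrix proteoglycan gene, had 8.39 to 61.5 CPM in WKY and 245 to 1307 CPM in SHR. Of the 3 endothelial markers tested, 2 had a positive and 1 a negative log2 difference, and edgeR called 0. DESeq2 called 1, Tek, with 0.66, 1.85 and 0.44 CPM in WKY and 4.72, 9.38 and 8.32 CPM in SHR. The 4 mesothelial markers tested all had a positive log2 difference, with a median of 1.32, and edgeR and DESeq2 called 0. Within batch 1 their difference was below 0 for Msln (-0.15) and Wt1 (-0.49) and above 0 for Upk3b (3.97) and Krt8 (0.71). Between the single libraries of batch 2 it was 3.63 for Msln, 8.80 for Wt1, 4.99 for Upk3b and 3.12 for Krt8. The part of transcripts of any of these cell types in the strain differences given below, those of Hpgd, Ptgfr, Akr1c14 and Pla2g12a included, was not tested.

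**Figure D1:**
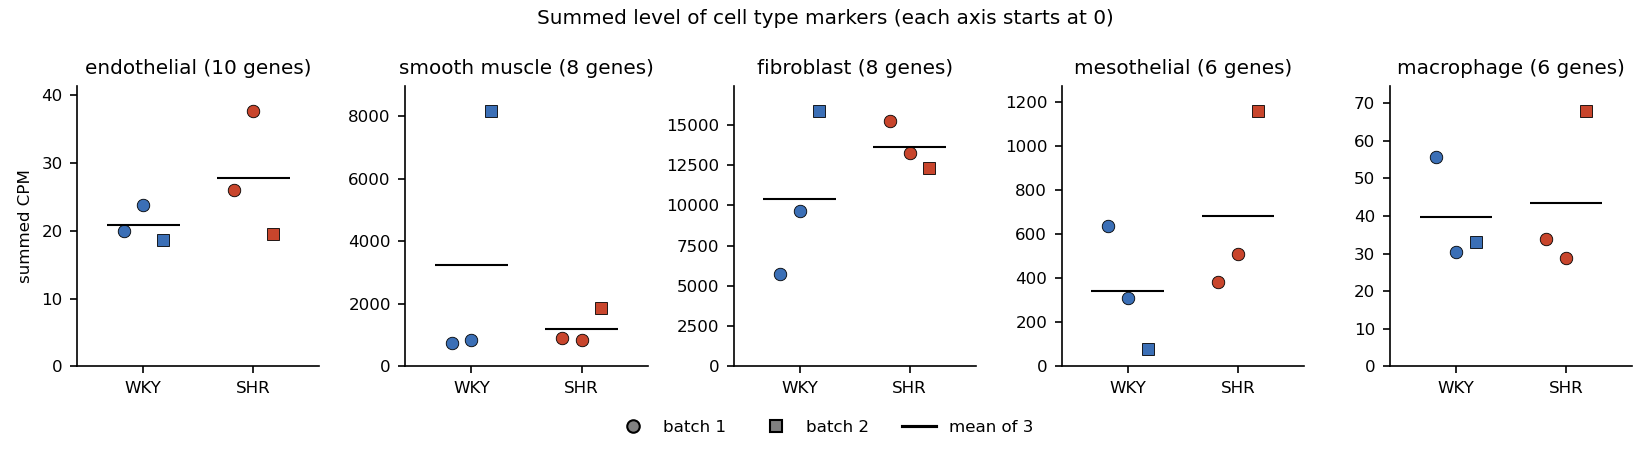
Summed CPM of the matched markers of 5 cell types, 1 panel a type, with a point for each library (circles batch 1, squares batch 2) and a line at the strain mean. The endothelial sums stay under 38 CPM, and the smooth muscle sums of the 2 batch 2 libraries, 8144 and 1860 CPM, lie above the batch 1 libraries.

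The upstream windows of both cyclooxygenase genes and of Hpgd are shown because these genes open and close the pathway and the cyclooxygenases are classically a constitutive and an inducible form. Each runs from 250 bases before to 50 bases after the annotated start in RefSeq on GRCr8, which is the Brown Norway genome and not the Rnor_6.0 build of the submitters' processing notes. Capitals mark the matches, on either strand, to 6 short motifs, which are spelled out after the windows.
Ptgs1, chr3:39981169-39981468, plus strand: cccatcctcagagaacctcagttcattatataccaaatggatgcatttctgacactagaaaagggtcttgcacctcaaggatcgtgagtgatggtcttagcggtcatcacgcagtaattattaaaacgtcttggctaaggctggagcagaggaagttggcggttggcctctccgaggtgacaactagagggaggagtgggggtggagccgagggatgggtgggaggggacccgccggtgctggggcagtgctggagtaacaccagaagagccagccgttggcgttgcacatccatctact
Ptgs2, chr13:64713813-64714112, plus strand: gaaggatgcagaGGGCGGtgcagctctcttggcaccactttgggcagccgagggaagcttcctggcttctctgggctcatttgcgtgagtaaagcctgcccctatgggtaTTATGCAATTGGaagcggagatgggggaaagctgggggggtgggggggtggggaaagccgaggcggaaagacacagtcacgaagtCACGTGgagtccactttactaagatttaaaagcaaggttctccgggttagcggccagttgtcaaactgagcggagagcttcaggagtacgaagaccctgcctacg
Hpgd, chr16:39034782-39035081, minus strand: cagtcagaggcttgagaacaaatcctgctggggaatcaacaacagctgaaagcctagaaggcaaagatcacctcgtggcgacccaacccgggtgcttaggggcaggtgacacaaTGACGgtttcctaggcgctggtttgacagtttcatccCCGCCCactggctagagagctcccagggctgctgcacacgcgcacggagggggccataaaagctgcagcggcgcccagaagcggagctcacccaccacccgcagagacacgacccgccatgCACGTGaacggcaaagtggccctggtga
None of the 6 motifs was in the Ptgs1 window. The Ptgs2 window held a C/EBP type site (TTNNGNAA) with its first base at -140, a motif found in 41.3% of all 33469 windows of this length. It overlaps a reversed CCAAT box at -133, which 37.5% of windows hold. An E-box (CACGTG, in 6.42% of windows) followed at -55, and a GC box (GGGCGG, in 33.1%) lay at -238. The Hpgd window held an E-box after the start, a GC box at -99 and the half-site of the cAMP response element (TGACG, in 21.2% of windows) at -136. The motif searched for as a TATA box (TATAAA, in 14.2%) was in none of the 3 windows. Matches are letters only and do not show binding. Of the 10 genes 9 had a window in the table, and Ptgis had none.

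Between the strains no gene of the 10 passed the test. The edgeR quasi-likelihood test with a batch term called 0 of the 8 tested, against 0.254% of all genes (32 of 12614, and 6 with the replicate number as a block), and 1 of the 8, Hpgd, had an unadjusted p below 0.05, against 13.3% of all genes. The median log2 difference of the 8, SHR over WKY, was 0.58, against -0.02 over all genes tested, with 5 positive and 3 negative. DESeq2, which gave no adjusted p for Ptgds, called 1 of the 10, again Hpgd, against 5.14% of all genes. The fit with the replicate block called 0 of the 8 as well.

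Ptgs1, the constitutive cyclooxygenase gene, was abundantly read in every library. Its level was 171, 421 and 220 CPM in WKY replicates 1, 2 and 3 and 237, 164 and 103 CPM in SHR replicates 1, 2 and 3. WKY replicate 2 held the highest and SHR replicate 3 the lowest level, and the strains overlapped. The WKY mean was 271 ± 132 CPM and the SHR mean 168 ± 66.9 CPM (SD over 3 libraries a strain), and the fitted log2 difference of -0.74 (SE 0.38) did not pass edgeR's test (adjusted p = 0.477). It rested in part on WKY replicate 2, since without that library it was -0.36. Without WKY replicate 1 it was -1.09, and it stayed negative with any 1 library left out.

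Ptgs2, the inducible cyclooxygenase gene, was read only 183 times in all. Its level was 3.69, 0.264 and 1.80 CPM in the WKY libraries and 0.42, 1.17 and 2.34 CPM in the SHR libraries. The highest and the lowest value both belonged to WKY, 13.9-fold apart. The fitted log2 difference was -0.73 (SE 1.02, edgeR adjusted p = 0.789), and it was 0.94 without WKY replicate 1.

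Ptgis, the prostacyclin synthase gene, differed by batch and not detectably by strain. It had 67.2, 96.2 and 281 CPM in WKY and 121, 104 and 317 CPM in SHR. Replicate 3 was the highest of each strain, and every batch 1 library lay at or under 121 CPM. The strain difference was 0.37 on the log2 scale (SE 0.19, edgeR adjusted p = 0.476), and 0.20 without WKY replicate 1. Within batch 1 it was 0.46, and between the single libraries of batch 2 it was 0.17.

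Ptges, the inducible prostaglandin E synthase gene, had 7.47, 3.23 and 1.12 CPM in WKY and 2.83, 2.50 and 3.54 CPM in SHR. The SHR libraries lay within 1.41-fold of each other, and the WKY libraries spread 6.68-fold around them. The fitted log2 difference of -0.20 (SE 0.69, edgeR adjusted p = 0.921) had no stable sign: it was -1.0 within batch 1 and 1.65 between the batch 2 libraries.

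The synthases of prostaglandin D and thromboxane were barely read. Ptgds had no count in any WKY library and 1, 0 and 2 counts in SHR replicates 1, 2 and 3, all at or under the 3 counts that a count of 0 allows. Tbxas1 had 2, 1 and 2 counts in WKY and 1, 1 and 14 counts in SHR. Its 14 counts in SHR replicate 3, 0.728 CPM, were the only value above that limit. Neither gene entered the edgeR test. DESeq2 gave Tbxas1 an adjusted p of 0.915 for strain and 0.171 for batch, and gave none for Ptgds.

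**Figure D2:**
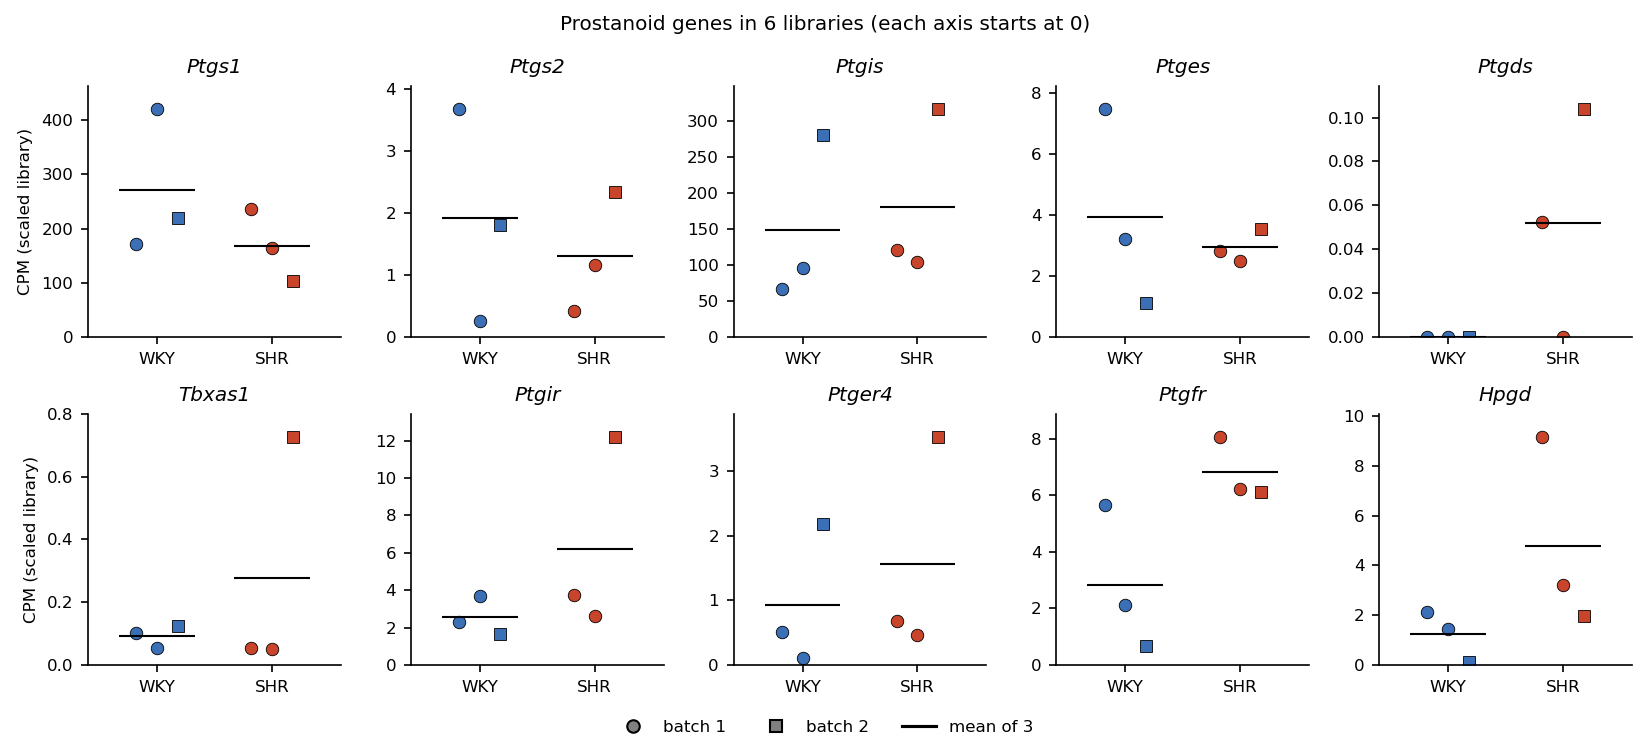
Level of the 10 genes in CPM of the scaled library, 1 panel a gene, each axis from 0, with circles for batch 1, squares for batch 2 and a line at the mean of the 3 libraries of a strain. For Ptgis the batch 2 libraries (281 and 317 CPM) lie above all others, and for Ptgfr the SHR libraries (6.13 to 8.08 CPM) lie above the WKY libraries (0.684 to 5.65 CPM).

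Among the receptors, Ptgfr was the gene of the 8 whose strains did not overlap, 1 of 8 against 9.81% of all genes tested. It encodes the prostaglandin F receptor, which couples to calcium release and contraction. Its level was 5.65, 2.12 and 0.684 CPM in WKY and 8.08, 6.22 and 6.13 CPM in SHR. The SHR libraries were close together and the WKY libraries were spread. The fitted log2 difference was 1.54 (SE 0.63) and did not pass edgeR's test (adjusted p = 0.387). It was 0.88 within batch 1 and 3.15 between the batch 2 libraries, where WKY replicate 3 had 11 counts.

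Ptgir, the prostacyclin receptor gene, was nearly level in 5 libraries and stood out in the sixth. It had 2.27, 3.70 and 1.68 CPM in WKY and 3.73, 2.60 and 12.2 CPM in SHR, so that only SHR replicate 3 lay above 4 CPM. The fitted log2 difference was 0.95 (SE 0.67, edgeR adjusted p = 0.596), and it was 0.09 without either SHR replicate 3 or WKY replicate 3. With the batch term each of these fits takes the strain difference from batch 1 alone, so they are not separate checks. The mesothelial markers summed to 1158 CPM in SHR replicate 3, against 78.4 to 638 CPM in the other libraries. The macrophage sum was also highest there (67.8 CPM). The smooth muscle and fibroblast sums were highest in WKY replicate 3 (8144 and 15813 CPM), and the endothelial sum in SHR replicate 2 (37.6 CPM). The part of any of these cell types in the Ptgir value of SHR replicate 3 was not tested.

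Ptger4, a prostaglandin E receptor gene, had 0.505, 0.106 and 2.18 CPM in WKY and 0.682, 0.459 and 3.54 CPM in SHR. The highest library of each strain was the one of batch 2. The strain difference of 0.80 on the log2 scale (SE 0.58) did not pass edgeR's test (adjusted p = 0.603). It was 1.34 without WKY replicate 1 and 0.42 without WKY replicate 2.

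Hpgd, the prostaglandin-inactivating dehydrogenase gene whose window is printed above, had the largest fitted strain difference of the 8. Its level was 2.12, 1.43 and 0.124 CPM in WKY and 9.19, 3.21 and 1.98 CPM in SHR. Within each batch SHR lay above WKY, but SHR replicate 3 lay inside the range of the batch 1 WKY libraries, so the strains overlapped. The WKY mean was 1.22 ± 1.01 CPM and the SHR mean 4.79 ± 3.86 CPM (SD over 3 libraries a strain). The fitted log2 difference was 2.27 (SE 0.64), or 4.83-fold, with an unadjusted p of 0.0127 and an adjusted p of 0.26 in edgeR. Its adjusted p in the other edgeR fits lay between 0.258 and 1. DESeq2 called it higher in SHR, with a log2 difference of 2.34 (SE 0.71, adjusted p = 0.0247). It was 1.80 within batch 1 and 3.92 between the batch 2 libraries, where WKY replicate 3 had 2 counts, under the limit that a count of 0 allows.

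**Figure D3:**
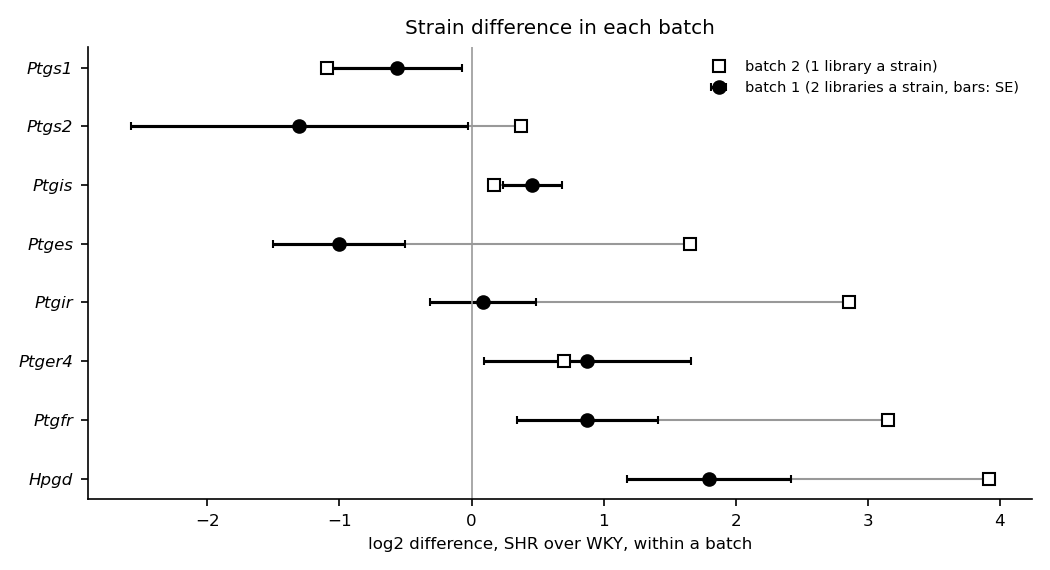
Log2 difference of SHR over WKY for the 8 tested genes within batch 1 (filled circles with SE, 2 libraries a strain) and within batch 2 (open squares, 1 library a strain, no error). The points of Ptges lie on opposite sides of 0 (-1.0 and 1.65), and those of Ptgir are 0.08 and 2.86.

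Whether the strain difference itself differed between batches was tested with an interaction term. The edgeR test called 0 of the 8 genes, and 0% of all 12614, at the adjusted threshold. At an unadjusted p below 0.05 it gave 2 of the 8, against 12.7% of all genes. These were Ptgir, with an interaction of 2.77 (SE 0.71, adjusted p = 0.268), and Ptges, with 2.66 (SE 0.91, adjusted p = 0.354). DESeq2 called neither (adjusted p = 0.153 and 0.35). Batch 2 holds 1 library of each strain, so the spread in this test comes from batch 1 alone.

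More of these genes were called for batch than for strain. Of the 8 tested, edgeR called 2 higher in batch 2, against 21% of all genes, and 1 lower, against 22.5%. In either direction 43.5% of all genes were called, so the share of 3 in 8 was near the background. Ptgis rose 3.11-fold (log2 difference 1.64, SE 0.19, edgeR adjusted p = 0.00262), from 97.1 ± 22.4 CPM (SD, n = 4) in batch 1 to 281 and 317 CPM in batch 2. Its adjusted p stayed below the threshold with any 1 library left out. Ptger4 rose 6.52-fold (log2 difference 2.70, SE 0.57, edgeR adjusted p = 0.0138), from 0.438 ± 0.242 CPM (SD, n = 4) to 2.18 and 3.54 CPM. It was not called without WKY replicate 3 (adjusted p = 0.0704), SHR replicate 2 (0.0565) or SHR replicate 3 (0.0708). For both genes the batches did not overlap, as for 57.6% of all genes tested.

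In batch 2 Hpgd fell 4.99-fold (log2 difference -2.32, SE 0.73, edgeR adjusted p = 0.0476), with 1.43 to 9.19 CPM in batch 1 and 0.124 and 1.98 CPM in batch 2. This call was lost with any 1 of WKY replicates 1, 2 and 3 or SHR replicates 1 and 3 left out (adjusted p between 0.055 and 0.17) and without the filter on low counts (0.051), and its size grew to -3.76 without SHR replicate 3. The other 5 genes did not pass. Ptgs1 had -0.68 (SE 0.41, adjusted p = 0.228) and was called lower in batch 2 once WKY replicate 1 was dropped (-0.96, adjusted p = 0.0298). Ptgir had 0.82 (SE 0.70, adjusted p = 0.38), was called higher without WKY replicate 3 (1.94, adjusted p = 0.0334) and had -0.83 without SHR replicate 3.

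Of the smooth muscle markers 5 of 7 tested were higher in batch 2 by edgeR, against 21% of all genes, and the median log2 difference was 2.67. In these 5 the batches did not overlap. Tagln and Des were not called. Tagln had 3043 CPM in WKY replicate 3 and 480 CPM in SHR replicate 3, against 498 to 578 CPM in batch 1. Des had 3.11 CPM in WKY replicate 3 and 87.7 CPM in SHR replicate 3, against 1.68 to 21.8 CPM in batch 1. Myh11, the smooth muscle myosin gene, had 345 CPM in WKY replicate 3 and 49.2 CPM in SHR replicate 3, against 2.57 to 6.40 CPM in batch 1. Ptgis had 281 CPM in WKY replicate 3 and 317 CPM in SHR replicate 3. The part of smooth muscle transcripts in the batch differences was not tested.

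**Figure D4:**
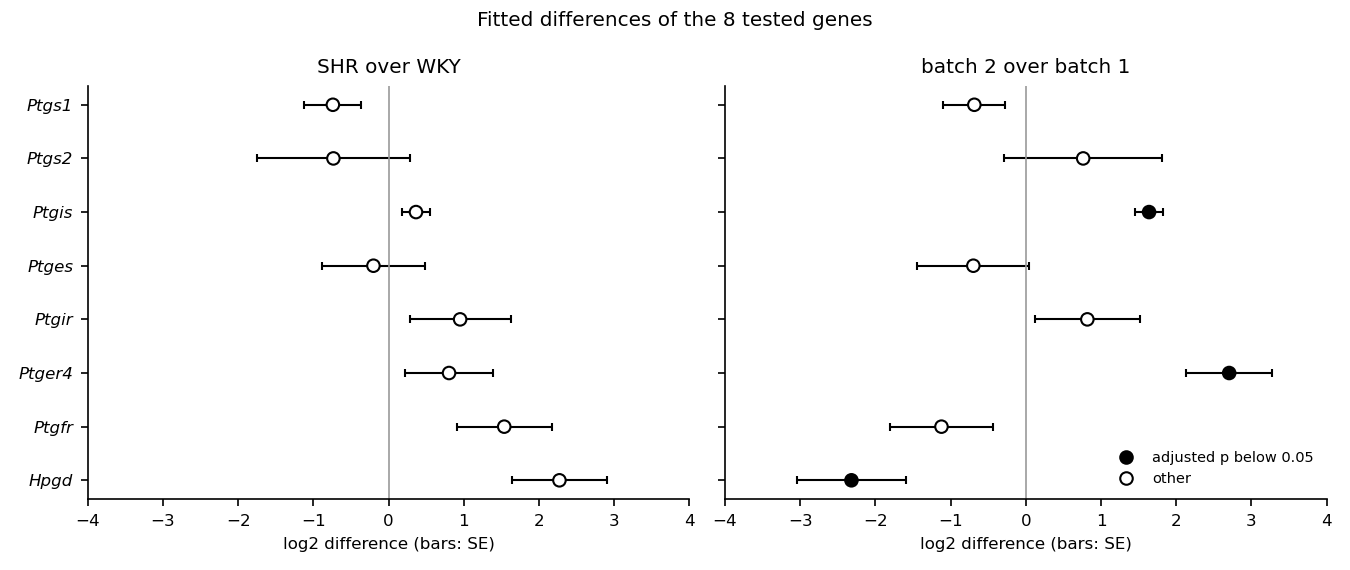
Fitted log2 differences with SE for the 8 tested genes, SHR over WKY on the left and batch 2 over batch 1 on the right, with filled points where the edgeR adjusted p was below 0.05. No point is filled for strain, and Ptgis (1.64), Ptger4 (2.70) and Hpgd (-2.32) are filled for batch.

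The rest of the pathway was read from a list of 35 further genes, of which 29 were matched and 22 tested. For strain edgeR called 0 of the 22, while 2 had an unadjusted p below 0.05, Akr1c14 and Pla2g12a, with SHR above WKY in each. DESeq2 called the same 2 for strain. These counts were near the shares of all genes, 0.254% by edgeR, 13.3% at the unadjusted p and 5.14% by DESeq2. The median log2 difference was -0.12. For batch edgeR called 2 higher and 6 lower, with a median of -0.44, against -0.00 over all genes tested. The share of 8 in 22 was near the 43.5% of all genes called for batch.

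At the entry to the pathway, Pla2g4a, the cytosolic phospholipase A2 gene that frees arachidonic acid, had 36.8, 13.1 and 24.9 CPM in WKY and 20.7, 21.4 and 16.3 CPM in SHR. It passed neither test (adjusted p = 0.719 for strain and 0.738 for batch in edgeR). The calcium-independent phospholipase gene Pla2g6 rose in batch 2, with 47.6 and 60.5 CPM there and 11.2 to 16.9 CPM in batch 1 (log2 difference 1.96, SE 0.21, edgeR adjusted p = 0.00219). Pla2g4b rose likewise by 1.46 (SE 0.25, edgeR adjusted p = 0.0069). Pla2g12a, a secreted phospholipase gene given because DESeq2 called it, had 8.63, 8.25 and 9.20 CPM in WKY and 14.7, 11.5 and 19.4 CPM in SHR. Its strains did not overlap. The log2 difference was 0.78 (SE 0.19, adjusted p = 0.226) in edgeR and 0.80 (SE 0.24, adjusted p = 0.0231) in DESeq2.

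Of the other synthases, Ptges3, a heat shock protein cochaperone gene also known as the cytosolic prostaglandin E synthase, fell in batch 2 to 75.3 and 89.98 CPM from 264 to 306 CPM (log2 difference -1.74, SE 0.17, edgeR adjusted p = 0.00195). Ptges2, of a membrane-associated prostaglandin E synthase, fell by 0.62 (SE 0.20, edgeR adjusted p = 0.0469), and Prxl2b, of a prostamide and prostaglandin F synthase, by 1.92 (SE 0.31, edgeR adjusted p = 0.00608). The aldo-keto reductase gene Akr1c14 had 19.1, 63.2 and 20.2 CPM in WKY and 202, 96.1 and 372 CPM in SHR. The strains did not overlap, and the log2 difference was 2.60 in edgeR (SE 0.77, unadjusted p = 0.0187, adjusted p = 0.284) and 2.61 in DESeq2 (SE 0.64, adjusted p = 0.0021). This enzyme acts on steroids as well as prostaglandins, and it has close relatives that can share its reads.

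Of the other receptors, only the thromboxane receptor gene Tbxa2r was above 2 CPM in any library. It had 4.09, 18.9 and 60.8 CPM in WKY and 15.6, 14.8 and 22.4 CPM in SHR. Its highest library was WKY replicate 3, the one with the highest smooth muscle sum, and the part of smooth muscle transcripts in this value was not tested. Tbxa2r passed neither test in edgeR (adjusted p = 0.92 for strain and 0.125 for batch), and DESeq2, which called 46.7% of all genes for batch, called it higher in batch 2 (adjusted p = 0.0416). The prostaglandin E receptor genes Ptger1 and Ptger3 reached at most 1.01 and 1.38 CPM, Ptger2 was listed at 0 in all 6 libraries and the prostaglandin D receptor gene Ptgdr2 had 1 count in all.

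Among transport and breakdown genes, Slco2a1, which encodes the prostaglandin uptake transporter, had 190, 444 and 195 CPM in WKY and 835, 489 and 194 CPM in SHR. Both batch 2 libraries were near 195 CPM whatever the strain, and the strain difference of 0.71 (SE 0.44, edgeR adjusted p = 0.547) was 1.06 within batch 1 and -0.00 in batch 2. Abcc4, an exporter of prostaglandins and cyclic nucleotides, had 52.8, 38.5 and 48.6 CPM in WKY and 38.7, 33.95 and 15.6 CPM in SHR (log2 difference -0.75, SE 0.31, edgeR adjusted p = 0.389). The reductase genes Ptgr1 and Ptgr2, which act after Hpgd, fell in batch 2 by 1.37 (SE 0.17, edgeR adjusted p = 0.00317) and by 0.89 (SE 0.22, edgeR adjusted p = 0.0232). Ptgfrn, a membrane protein gene named for its binding to the prostaglandin F receptor, fell by 0.86 (SE 0.19, edgeR adjusted p = 0.0172).

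**Figure D5:**
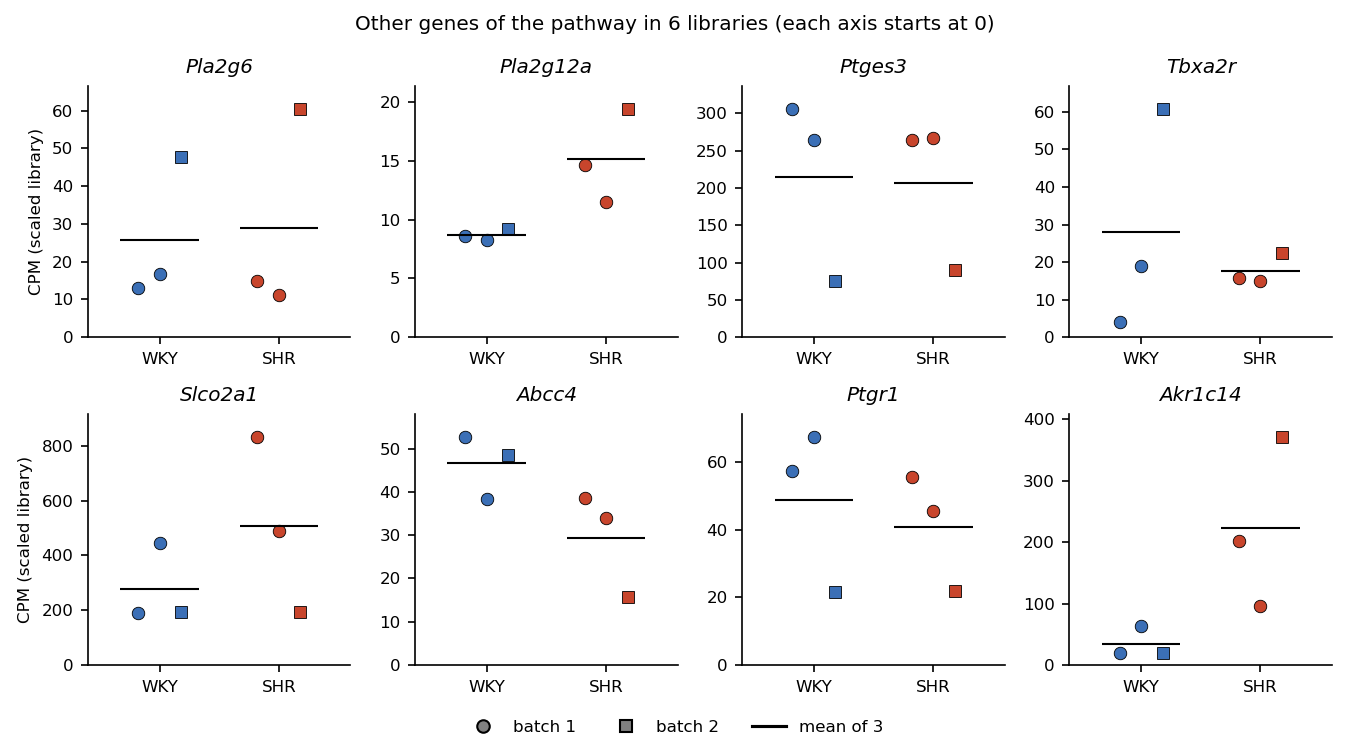
Level of 8 other genes of the pathway in CPM of the scaled library, each axis from 0, with circles for batch 1, squares for batch 2 and lines at strain means. Ptges3 and Ptgr1 are lowest in the batch 2 libraries, Pla2g6 is highest there, and in Pla2g12a and Akr1c14 each SHR library lies above each WKY library.

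The lipoxygenase branch, which turns the same arachidonic acid into leukotrienes, was read from 18 genes, with 15 matched and 7 tested. For strain edgeR and DESeq2 called 0 of them, and the count with an unadjusted edgeR p below 0.05 was 0. For batch edgeR called 3 of the 7, near the 43.5% of all genes. Ggt5, a glutamyl transferase gene (log2 difference 2.06, SE 0.35, adjusted p = 0.00732), and the glutathione transferase gene Mgst3 (1.21, SE 0.36, adjusted p = 0.0391) were higher in batch 2 and Mgst2 (-1.16, SE 0.33, adjusted p = 0.0355) was lower. Alox5, the 5-lipoxygenase gene that starts the branch, had at most 0.435 CPM.

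The genes whose level was most like that of a cyclooxygenase or prostacyclin synthase gene were taken from the 9993 genes whose mean was 5 CPM or more, by the Pearson coefficient of log2 CPM over the 6 libraries, which share strain and batch. They were Ndrg4, Sin3b and Gpr107 for Ptgs1 (0.97 each), Hmces (0.98), Gphn and Sh3rf1 (0.97 each) for Ptgs2, and Nr1h2, Pik3r2 and Arhgef18 for Ptgis (1.00 each). For Ptgis 592 genes had a coefficient over 0.95, and for Ptgs1 and Ptgs2 7 and 8 had. With 6 libraries and 9993 genes searched, coefficients this high can arise between unrelated genes, and none was tested. Ptgs2 had only 5 to 73 counts per library.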

How the data were processed

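RNA was sequenced from 6 libraries with paired reads of 100 bp on a DNBSEQ instrument, per the labels' protocols. The authors deposited estimated counts per gene, not normalized, 1 column per library, and 8.96% of the values were not whole (tolerance 0.001). The tools named, per the submitters' processing notes and without roles, are RSEM 1.2.28, Bowtie2 2.4.4 and DESeq2 1.42.1, with the build Rnor_6.0. Strand and the handling of shared reads are not given in the sources used here. A second deposited table of log2 values, in which the batch means are equal, was not used.

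Estimated counts were rounded for testing. Genes were filtered with filterByExpr by strain, scaled by TMM (factors 0.873 to 1.07) and tested two-sided with edgeR 4.0.16 in R 4.3.3 (robust glmQLFit, glmQLFTest) on a model of strain plus batch, which leaves 3 residual degrees of freedom. The interaction fit leaves 2. Benjamini-Hochberg adjustment covered all genes tested, and calls had an adjusted p below 0.05. The SE was computed from the log2 difference and the F statistic. Fitted differences include a small prior count, so those of genes with very few counts are no bounds. CPM used unrounded counts over scaled library sizes. Alternatives were RLE factors, no filter, DESeq2 1.42.0, no batch term, the replicate block, batch 1 alone and each library left out. The code was tested on simulated counts.

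The 10 genes and the lists were chosen with earlier results of these data known. Named were the 10 genes, 15 others of the pathway by role and those called, up to 4 called lipoxygenase genes per comparison, and the 3 genes most like Ptgs1, Ptgs2 and Ptgis. Pla2g12a and Akr1c14 were added after their values were seen. Of the 15, Hpgds, Ptgdr and Cbr1 were not matched. The lists held 107 genes, and 13 found no match, 93 matched on the symbol and 1 on its gene identifier. Same-numbered libraries deviated together from their strain means (correlation across genes 0.303, 0.40 and 0.655). Replicates 1 and 2, which are in batch 1, also did so crosswise (0.493 and 0.484). The difference of replicate 1 from replicate 2 in WKY had a correlation of -0.197 with that in SHR, across 12614 genes. Pairs of libraries differed far beyond sampling noise (chi-square per gene at least 45.9). The limit given for a count of 0 covers counting error only, while the SD and the SE include the spread among libraries.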

Additional observations from a re-analysis of the deposited data

How the results depend on the processing

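For strain, 32 genes of all were called, 719 by the DESeq2 Wald test, 2 without a batch term, 6 with the replicate block (5 of them among the 32) and 0 to 65 with 1 library left out (4 without WKY replicate 1, 65 without WKY replicate 2, 20 without WKY replicate 3, 0 without SHR replicate 1 or 2, where 1134 and 1513 had an unadjusted p below 0.05). The block changed no call of the 10 genes. For the interaction 0 genes were called, with 1597 at an unadjusted p below 0.05, against 4 without the filter on low counts and 443 by DESeq2. The batch count of 5491 stayed within 1.5 times in every alternative run. Signs turned with 1 library left out as follows, and the cause was not tested. For strain, Ptgs2 lay between -1.30 and 0.94 (without WKY replicate 1) and Ptges between -1.0 and 0.47 (above 0 without WKY replicate 1, SHR replicate 1 or SHR replicate 2). For batch, Ptgs2 lay between -0.13 (without SHR replicate 3) and 1.99, Ptges between -2.25 and 0.40 (without WKY replicate 3) and Ptgir between -0.83 (without SHR replicate 3) and 1.94. Of the 30 tested genes of the pathway, 8 of the 10 among them, 11 were called for batch, and 7 without SHR replicate 1, 2 or 3. Ptger4 fell under the filter with batch 1 alone and has no value there. The interaction was not fitted with a library left out. At these depths Ptgds, Tbxas1 and Ptger2 were too rarely read for a comparison.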
